A study of Mus musculus with 2 samples.

Results

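Cells rich in mitochondrial transcripts were compared with cells poor in them, among single mouse fibroblasts sorted by a circadian reporter. The cells were selected on a measured value: within each plate and each sort gate, cells with at least 1000 detected genes were ranked by the percentage of their counts in genes whose symbol starts with mt-. The 1 in 4 cells with the highest share were then set against the 1 in 4 with the lowest. The 2 sides together held 382 of the 768 cells, with 191 on each side, from 767 cells that could be ranked. Each of the 8 plate-and-gate pairs gave 23 or 24 cells per side, and the counts of those cells were summed into 1 pool per side, 16 pools in all.

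The cells were NIH3T3-Rev-VNP1-H2B-iRFP, a derivative of the immortalized mouse embryonic fibroblast line NIH3T3 in which Venus reports on the clock repressor gene Nr1d1 and histone H2B carries iRFP, a near-infrared fluorescent protein. Both sides of every pair carried both reporters and came from the same unsynchronized, nearly confluent culture in high glucose medium with pyruvate and serum, with no drug or other treatment named. High RFP sort cells filled plate 1 and low RFP sort cells filled plate 2, with 4 Venus gates of 96 cells on each. The labels name no separate cultures, so p-values below measure only the spread between plate-and-gate pools of 2 plates.

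Mitochondria keep a small genome of their own, which encodes core subunits of the respiratory chain and of ATP synthase together with the ribosomal and transfer RNAs needed to make them. Its transcripts arise as long precursors from opposite strands, while the other mitochondrial proteins are encoded in the nucleus and imported. In single-cell data the share of counts in mitochondrial transcripts is widely used both as a sign of metabolic activity and as a sign of damaged cells that have lost cytoplasmic RNA.

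The ranking value spanned 0.629% to 19.8% of counts over the ranked cells, with a median of 9.27% on plate 1 and 7.40% on plate 2. Pool medians on the low side ran from 5.63% to 7.93% with a middle value of 6.46%, and on the high side from 8.59% to 12.5% with a middle value of 10.6%. The pools of the 2 sides did not overlap; within each pair the ranking itself fixes this order. In the dimmest Venus gate of plate 1 the last cell inside the low end had 8.79% and the first cell outside it 8.82%, and in the brightest gate of plate 2 the values at the edge of the high end were 7.85% on both sides of the line. The high side of that plate 2 gate therefore started below the share at which the low side of that plate 1 gate ended.

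All 32 mitochondrial features in the table had counts, and they are described here without a test because they chose the cells. The large ribosomal RNA mt-Rnr2 alone held 50.9% of the mitochondrial counts, followed by mt-Nd1 with 24.0%, mt-Cytb with 10.3%, mt-Nd5 with 5.97% and mt-Co1 with 4.15%. The difference was not uniform over these features. The median ratio of high to low share over the 8 pairs was 1.87 for mt-Rnr2. It was 1.62 for mt-Nd4, 1.58 for mt-Cytb, 1.54 for mt-Co1 and 1.47 for mt-Nd1, subunits of respiratory complexes I, III and IV. The other ribosomal RNA, mt-Rnr1, had a ratio of 1.55, and its share of the mitochondrial counts was higher on the high side in 0 of 8 pairs. The smallest ratio among the 9 most counted features was 1.37, for mt-Nd6, the complex I subunit encoded on the opposite strand from the other protein genes. Within the mitochondrial counts alone, mt-Rnr2 made up 47.1% ± 4.91 (SD, 8 pools) on the low side and 53.1% ± 6.74 on the high side. It was higher in 8 of 8 pairs, while mt-Nd1 went from 26.2% ± 2.05 to 22.7% ± 2.72 and was lower in 8 of 8. The sum of these counts ranked the cells and mt-Rnr2 was its largest part, so the ranking itself favours this order. Nothing further is read from it. Several genes that lie between well counted ones were almost uncounted: mt-Co2 held 3099 counts over all cells, mt-Co3 2382 and mt-Atp6 7055, against 2280254 for mt-Co1.

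**Figure D1:**
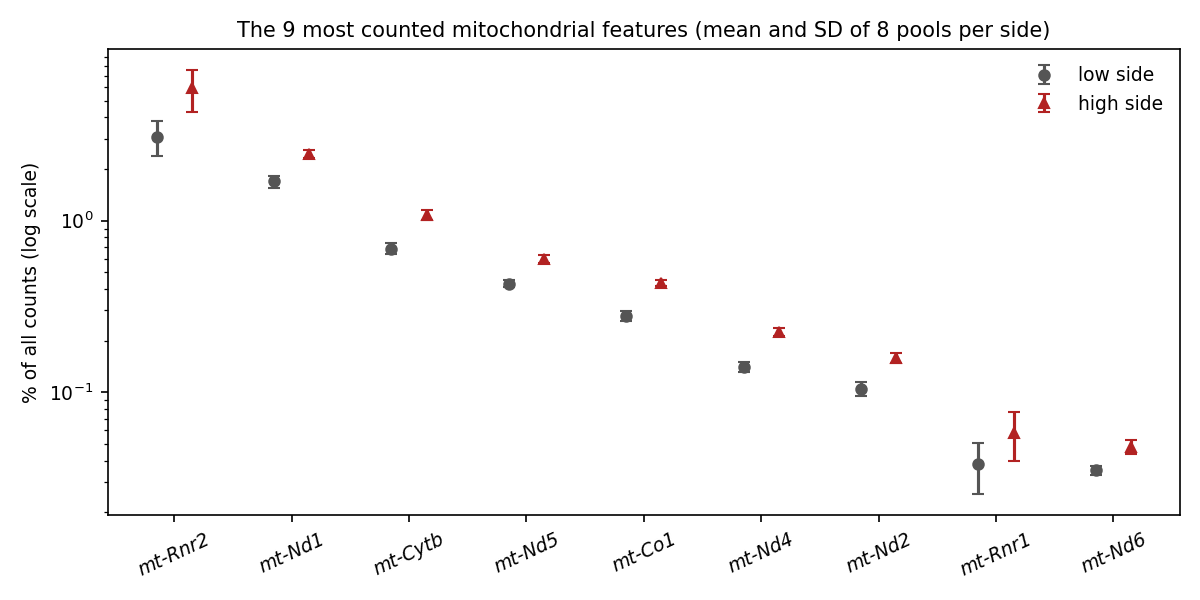
Share of all counts (%, log scale) for the 9 most counted mitochondrial features on the low and the high side; points are means and bars SDs of 8 plate-and-gate pools. Every feature shown is higher on the high side, by a median ratio of 1.87 for mt-Rnr2 and of 1.37 for mt-Nd6, as the ranking requires of their sum.

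Sequencing depth overlapped between the sides. Median total counts per cell in the low pools were 786686, 839168 and 902533 (lowest, middle and highest pool) and in the high pools 706248, 847034 and 893339, higher on the high side in 5 of 8 pairs. Counts outside the mitochondrial genes were lower on the high side in 8 of 8 pairs, with middle values of 753106 against 786307. These totals are the denominator of the ranking value and were not tested. Per the labels' protocols cDNA was diluted to a common concentration before tagmentation, so totals give no measure of RNA per cell.

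Forward scatter area, which grows with cell size and was recorded before lysis, had pool medians of 4.26e+07, 4.94e+07 and 6.44e+07 arbitrary units on the low side and 4.46e+07, 4.97e+07 and 5.66e+07 on the high side. The sides overlapped, and the mean difference was -0.03 ± 0.11 on the log2 scale (SD over pairs), with a range over pairs from -0.22 to 0.08 (exact two-sided sign-flip permutation test, p = 0.461, smallest possible 0.0078). Side scatter (0.03 ± 0.11, exact permutation p = 0.438), Venus fluorescence (0.03 ± 0.24, exact permutation p = 0.695) and iRFP fluorescence (-0.01 ± 0.13, exact permutation p = 0.758) did not pass either, and the adjusted p was 0.758 for all 4 measures. Neither sort time nor plate row passed (exact permutation p = 0.969 and 1).

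Genes detected per cell were fewer on the high side. Unthinned, middle values were 11216 genes for low pools and 10927 for high pools, lower in 8 of 8 pairs. With each cell thinned to 150000 non-mitochondrial counts, the low pools had 9187, 9308 and 9383 genes and the high pools 9073, 9188 and 9332. The ranges overlapped, yet the high side was lower in 8 of 8 pairs, by 124 genes on average (SD 49.2; exact permutation p = 0.0078, the smallest this design allows). That thinning left out 1 low and 2 high cells.

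**Figure D2:**
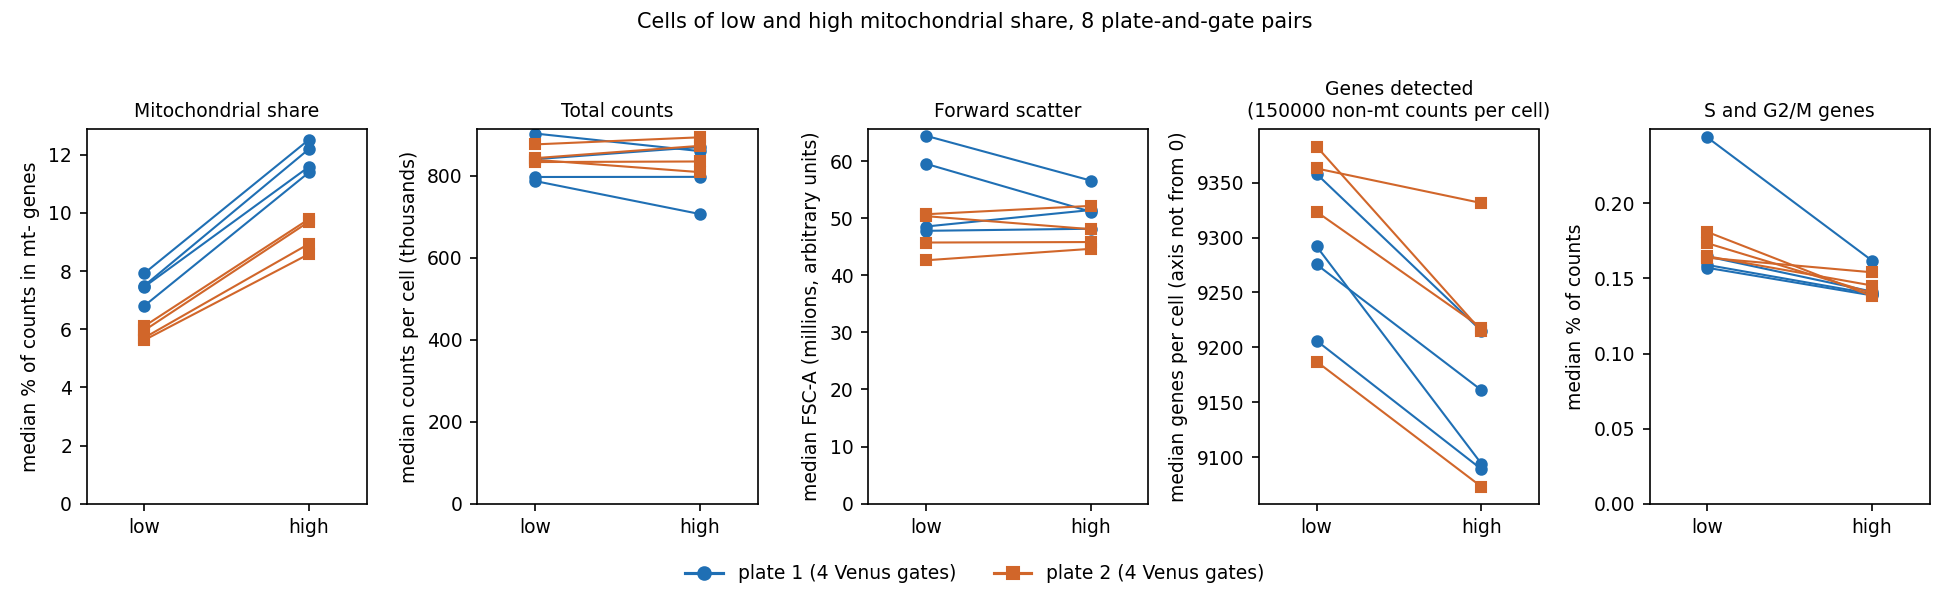
Median per plate-and-gate pool of the mitochondrial share (% of counts), total counts per cell (axis in units of 1000), forward scatter (FSC-A, arbitrary units, axis in units of 1000000), genes detected at 150000 non-mitochondrial counts per cell (axis not from 0) and share of counts in S and G2/M genes (%). Each line joins the low and high pool of 1 pair, with circles for plate 1 and squares for plate 2; lines for total counts and forward scatter cross, while genes detected and cycle genes fall in 8 of 8 pairs.

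Outside the mitochondrial genome, 13242 genes were tested on counts relative to the non-mitochondrial total, and 3235 (24.4%) differed at an adjusted p under 0.05 in edgeR's quasi-likelihood test with the pair as a block. On the high side 1496 genes (11.3%) were higher and 1739 (13.1%) lower, with median log2 changes of 0.37 and -0.38. Only 398 of these changed by at least 1 on the log2 scale, of which 297 were lower. The sign was the same on plate 1 and on plate 2 for all 3235. The call itself favours this, since it used the pairs of both plates, so it is no independent repeat. The pools of the 2 sides did not overlap for 404 of the genes tested (3.05%). The median log2 change of all genes was 0.02, so shifts of whole lists below are read against a background near 0. Counts of called genes in the lists are likewise read against 11.3% higher and 13.1% lower.

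Genes of amino acid supply were lower on the high side. ATF4 is the transcription factor through which cells raise amino acid synthesis and import when amino acids run short, when the endoplasmic reticulum is stressed or when mitochondria fail, a programme called the integrated stress response. Of 30 tested genes linked to it, 21 fell and 1 rose, against the 13.1% and 11.3% of all genes given above, and the list's median was -0.61 (-0.58 on plate 1 and -0.64 on plate 2).

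The bases below, from 6 genes, are shown because 7 of the 17 fallen genes of this list with a RefSeq promoter entry (41.2%) hold the letters TGATGNAA (N is any base) on either strand in the 250 bases before the gene start, against 212 of 9143 tested genes (2.32%), 35 of 1374 fallen genes (2.55%) and 25 of 1055 risen genes (2.37%). These letters are the core of elements that ATF4 is known to bind with C/EBP partners. Capitals mark the match nearest to the gene start, which reads as the reverse complement in 4 of the 6; each line runs 5′ to 3′ along the gene's strand:
Asns: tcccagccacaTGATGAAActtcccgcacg
Chac1: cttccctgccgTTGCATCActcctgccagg
Pycr1: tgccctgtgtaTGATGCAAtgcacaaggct
Gars: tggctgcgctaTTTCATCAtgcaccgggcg
Pck2: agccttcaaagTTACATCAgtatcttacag
Slc7a11: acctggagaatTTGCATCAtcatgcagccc

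These are RefSeq promoter sequences of build GRCm38.p6, which is not the build in the submitters' processing notes. Their positions are Chac1 chr2:119351038-119351067, Gars chr6:55037960-55037989 and Pck2 chr14:55540152-55540181 on the plus strand, and Asns chr6:7693214-7693243, Pycr1 chr11:120643833-120643862 and Slc7a11 chr3:50443642-50443671 on the minus strand. All end before the RefSeq gene start; in GENCODE M21, another annotation of this build, the Asns window lies within an exon. Across all lists 7 letter patterns were searched, each chosen with results of these data known. The narrower forms TGATGNAAT and TGATGAAAC, both contained in the first, occurred in 3 of the 17 (17.6%; 0.427% of tested genes) and in 1 of the 17 (5.88%; 0.142%). The list was drawn up from genes linked to ATF4, so membership itself favours these letters, and members that did not fall were not counted. A match is a description of the letters and shows no binding.

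Atf4 mRNA itself was modestly lower. Its level in the low pools was 338, 449 and 566 counts per 1000000 non-mitochondrial counts (CPM; lowest, median and highest of 8 pools) and in the high pools 279.7, 363 and 429. The pools overlapped, and the log2 change was -0.29 ± 0.06 (SE) with an adjusted p of 0.0056, lower in 8 of 8 pairs. Ddit3, which encodes the stress factor CHOP, did not pass (log2 -0.08, adjusted p = 0.66).

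Enzymes of amino acid and one-carbon synthesis changed far more. Asns, asparagine synthetase, stood at 281, 380.5 and 466 CPM in the low pools and 127, 178 and 261 CPM in the high pools. No high pool reached the lowest low pool, and the log2 change was -1.02 ± 0.08 (SE) with an adjusted p of 3.8e-05. Phgdh, which commits glucose carbon to serine, stood at 312, 373 and 469 CPM against 147, 210.1 and 223 CPM, again without overlap (log2 -0.97 ± 0.07 (SE), adjusted p = 3.2e-05). Shmt2, the mitochondrial enzyme that passes a carbon from serine to folate, stood at 100.1, 132 and 182 CPM against 58.8, 71.5 and 96.4 CPM, also without overlap (log2 -0.91 ± 0.07 (SE), adjusted p = 3.2e-05). On plate 1 both sides tended to lie above plate 2 for Asns.

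Other members are named here after their values were seen. The log2 changes were -1.01 for Mthfd2, the next enzyme of mitochondrial folate, -0.76 for Psat1, which follows Phgdh in serine synthesis, and -0.74 for Aldh18a1 and -0.78 for Pycr1 in proline synthesis. Among transporters, Slc7a5, the light chain of the large neutral amino acid carrier, had the lowest value of the list at -1.54, its partner Slc3a2 had -0.46, and the cystine carrier Slc7a11 had -0.52. All of these fell at an adjusted p under 0.05. Ddit4, an inhibitor of the growth kinase mTORC1, was the 1 member that rose, from 46.5, 63.8 and 97.9 CPM to 61.1, 99 and 131 CPM with overlapping pools (log2 0.59 ± 0.07 (SE), adjusted p = 0.00024).

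Cytosolic aminoacyl-tRNA synthetases, which load amino acids onto tRNAs and some of which belong to the same list, fell alongside. This list of 19 tested genes was put together after values had been seen, so its count is a description: 16 fell and 0 rose, with a median of -0.43. Gars, for glycine, went from 339, 407 and 510.3 CPM to 183, 259 and 298 CPM without overlap (log2 -0.66 ± 0.06 (SE), adjusted p = 9.1e-05). Aars, for alanine, had a log2 change of -0.74 and Vars, for valine, one of -0.62. The cytosolic chaperonin CCT, which folds actin and tubulin, was also listed after its values were seen and had 5 of 8 subunits lower, with a median of -0.22.

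**Figure D3:**
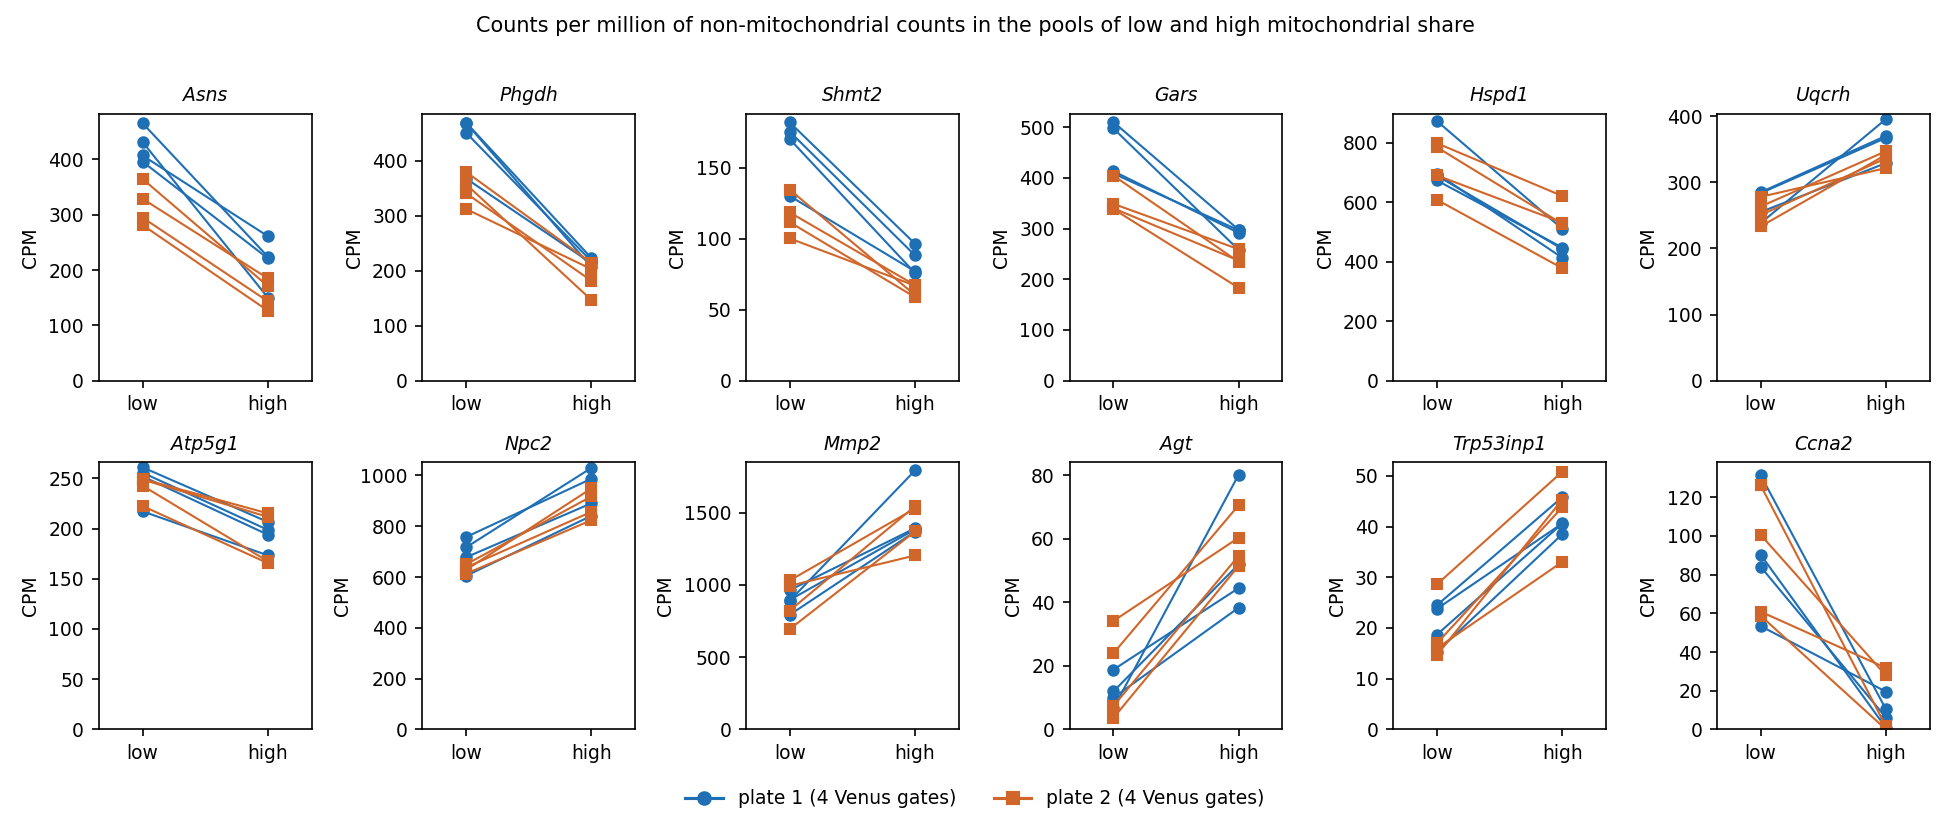
CPM (counts per 1000000 non-mitochondrial counts) for 12 genes in the low and high pools; each line joins the pools of 1 plate-and-gate pair (circles plate 1, squares plate 2), and each axis starts at 0. Asns, Phgdh, Shmt2, Gars and Ccna2 fall without overlap, Npc2, Mmp2, Agt and Trp53inp1 rise without overlap, and Uqcrh and Atp5g1, both of the respiratory chain list, move in opposite directions.

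Nuclear genes for respiratory chain proteins were called in both directions, together at about the share of all genes. Of 77 tested nuclear subunits of the respiratory chain and ATP synthase, 6 rose and 14 fell, beside 11.3% and 13.1% of all genes, with a median of -0.04 (-0.01 on plate 1, -0.07 on plate 2). Their summed level was 17482 to 20374 CPM in low pools and 17495 to 20040.1 CPM in high pools, which overlap almost fully. Uqcrh, a small complex III subunit, was the member with the smallest p among those that rose, from 233, 259 and 285 CPM to 321, 344 and 395 CPM without overlap (log2 0.43 ± 0.05 (SE), adjusted p = 0.00027). Ndufa6 of complex I rose by 0.33 and Atpif1, the inhibitor of ATP synthase, by 0.27 on the log2 scale. In the other direction, Atp5g1, a subunit of the ATP synthase ring, went from 217, 249 and 261 CPM to 166, 196 and 215 CPM without overlap (log2 -0.35 ± 0.04 (SE), adjusted p = 0.00028). Cycs, cytochrome c, fell by 0.55 and Uqcrq of complex III by 0.26 on the log2 scale. With cells ranked by the mitochondrial protein-coding genes alone, leaving out the ribosomal RNAs, 12 of the 77 rose and 8 fell (median -0.01). Over all 13278 genes tested in that ranking 1064 rose and 1327 fell.

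The machinery that transcribes, processes and translates the mitochondrial genome had 2 of 40 tested genes higher and 4 lower, with a median of -0.05, beside 11.3% higher and 13.1% lower of all genes. Tfam, which packages mitochondrial DNA and starts its transcription, stood at 31.6, 37.1 and 43.1 CPM against 31.7, 34.9 and 44.2 CPM and did not pass (log2 -0.06 ± 0.07 (SE), adjusted p = 0.55). Neither did Polrmt, the mitochondrial RNA polymerase (log2 -0.03 ± 0.09 (SE), adjusted p = 0.82). Of the pair that stabilizes mitochondrial messenger RNA, Lrpprc fell (log2 -0.24 ± 0.06 (SE), adjusted p = 0.019) and Slirp did not pass (-0.06, adjusted p = 0.51). Mterf2 (log2 0.50) and Mterf4 (0.17), members of the mitochondrial termination factor family, rose, and Tbrg4 (-0.41), an RNA-binding protein of mitochondria, fell. The call of Mterf4 was lost on leaving out any of 7 single pairs (adjusted p up to 0.12). Tbrg4, Mterf2 and Mterf4 share exon bases with other annotated genes, as do several genes below, and the use of strand in counting is not given in the sources used here.

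Genes for building and folding the mitochondrial proteome leaned lower. Of 77 tested mitochondrial ribosomal proteins, 22 fell and 1 (Mrpl24) rose, with a median of -0.12, and their summed level was lower in 8 of 8 pairs (middle values 5157 against 5587 CPM). Of 36 tested import and quality control genes, 16 fell and 1 (Tomm7) rose, with a median of -0.14. Tomm7 lost its call on leaving out any of 5 single pairs (adjusted p up to 0.085). Ranked by the mitochondrial protein-coding genes, 9 of the 77 ribosomal proteins (median -0.07) and 9 of the 36 import genes (median -0.08) fell. In that ranking 1327 of all 13278 genes fell, a share close to that of the ribosomal proteins. Hspd1, the matrix chaperonin HSP60, went from 608, 693 and 873 CPM to 378, 479 and 621 CPM with slightly overlapping pools (log2 -0.59 ± 0.05 (SE), adjusted p = 6.1e-05). Hspd1 shares exon bases with its neighbour Hspe1 on the opposite strand. Tomm40 (-0.38) and Timm23 (-0.46), the channels of the outer and inner membrane, fell as well. In the TCA cycle 6 of 19 genes fell and 0 rose (median -0.08), among them Pdha1 of pyruvate dehydrogenase with -0.27 and Idh3a with -0.35. Over all genes 13.1% fell and 11.3% rose. Without the 1 in 3 cells of each plate and gate richest in cycle transcripts, 2 of 77 ribosomal, 6 of 36 import and 0 of 19 TCA genes fell. In that setting 2.62% of all genes fell.

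Of 11 tested regulators of mitochondrial mass, 1 rose and 1 fell, a share no larger than the 24.4% called over all genes. Ppargc1a, the coactivator PGC-1 alpha, was scarce at 0.171, 1.73 and 3.34 CPM in low pools and 1.76, 4.03 and 11.3 CPM in high pools, which overlap, and rose by 1.62 ± 0.47 (SE) on the log2 scale (adjusted p = 0.027). It no longer passed without the dimmest Venus gate of plate 1 (1.42, adjusted p = 0.062) or without the second gate of plate 2 (1.46, adjusted p = 0.070). Of 19 tested genes of mitochondrial shape and removal, 5 rose and 1 fell (median 0.09), beside 11.3% and 13.1% of all genes. Bnip3, a mitophagy receptor, rose without overlap from 54.7, 60.2 and 68.9 CPM to 71.1, 80.2 and 94 CPM (log2 0.40 ± 0.05 (SE), adjusted p = 0.00035), Calcoco1, a receptor of selective autophagy, rose by 0.67, and Dnm1l, the fission GTPase, fell by 0.25. Without the 1 in 3 cells of each plate and gate richest in cycle transcripts, 1 of the 19 rose and 0 fell, and Bnip3 did not pass (0.18, adjusted p = 0.20). In glycolysis 8 of 18 genes fell and 1 (Pfkm) rose (median -0.25), beside 13.1% and 11.3% of all genes. Gapdh had a log2 change of -0.35, Pkm one of -0.41 and Tpi1 one of -0.31. Without the cells richest in cycle transcripts 3 of 17 glycolysis genes fell (median -0.07) and Tpi1 did not pass (-0.18, adjusted p = 0.098). Ranked by the mitochondrial protein-coding genes 5 of 18 fell and 2 rose (median -0.08), beside 1327 and 1064 of all 13278 genes. Pfkm lost its call on leaving out any of 7 single pairs (adjusted p up to 0.099).

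**Figure D4:**
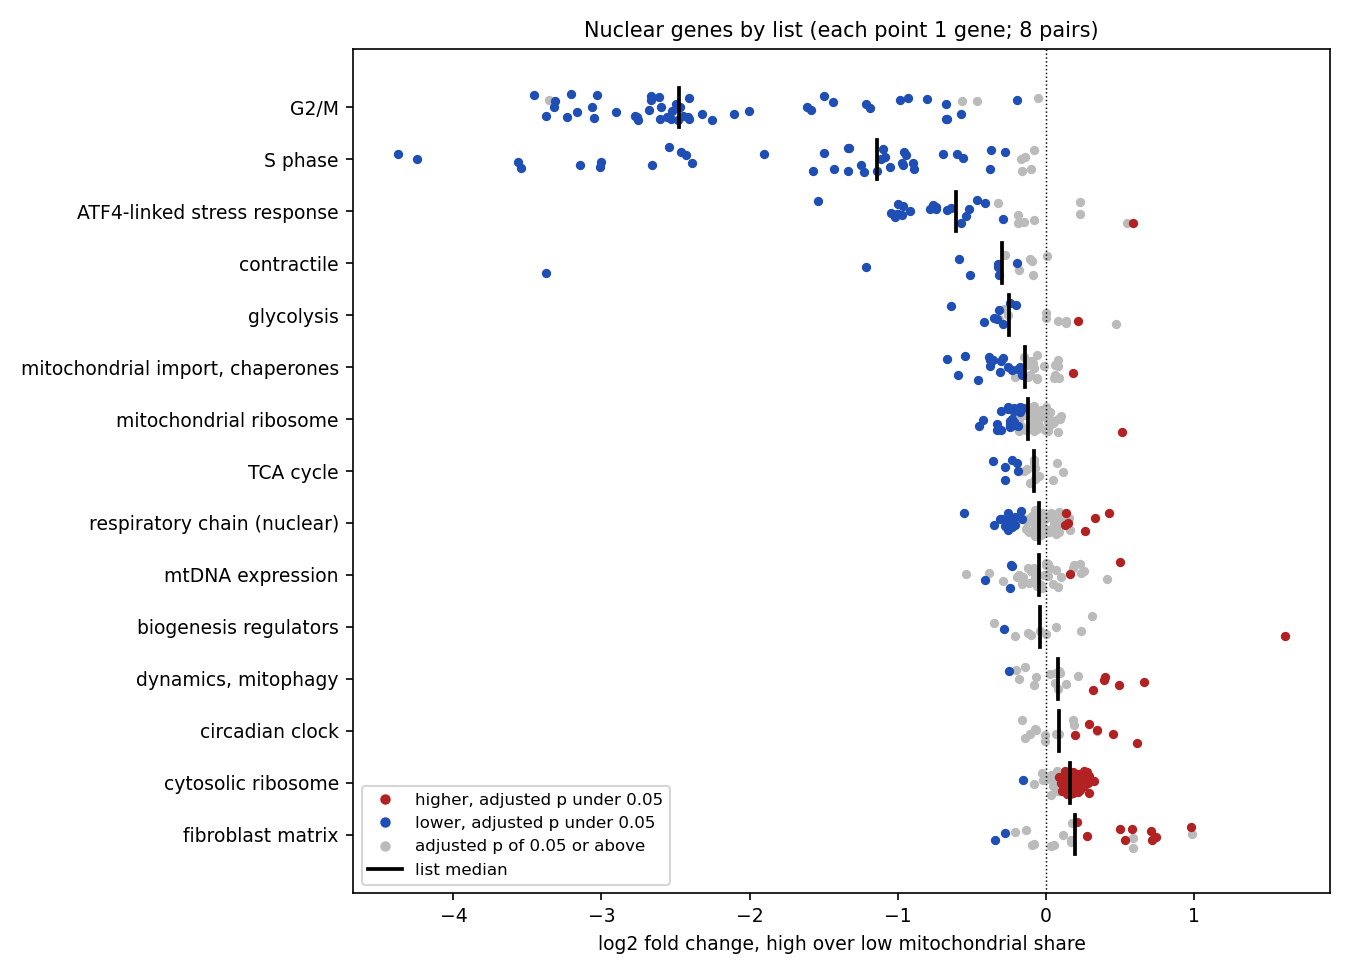
Log2 fold change (high over low mitochondrial share) of each tested gene in 15 lists; red and blue points are genes higher or lower at an adjusted p under 0.05, grey points did not pass, and black bars are list medians. The G2/M, S phase and ATF4-linked lists lie farthest left, with medians of -2.48, -1.14 and -0.61, while the respiratory chain list straddles 0.

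Genes of DNA replication and mitosis had the lowest medians of the lists examined. Of 52 tested G2/M genes 48 fell and 0 rose (median -2.48), and of 43 tested S phase genes 38 fell and 0 rose (median -1.14). Ccna2, cyclin A2, stood at 53.4, 87.2 and 131 CPM in low pools and 0.0505, 8.29 and 31.8 CPM in high pools, which do not overlap (log2 -3.48 ± 0.69 (SE), adjusted p = 0.0039). Mki67, the proliferation antigen Ki-67, stood at 45.1, 58.2 and 130.0 CPM against 1.25, 15.3 and 28.2 CPM, also apart (log2 -2.68 ± 0.51 (SE), adjusted p = 0.0032). Uhrf1, which keeps DNA methylated through replication, went from 22.6, 36.7 and 48.9 CPM to 2.83, 5.3 and 8.95 CPM (log2 -2.66 ± 0.18 (SE), adjusted p = 3.2e-05) and Mcm6, of the replicative helicase, had a log2 change of -1.90.

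By the naming rule, the 12 largest falls were all of this kind: Ccna2, Ect2, Bub1, Kif11, Ndc80, Ckap2l, Pimreg, Plk1, Kif23, Nuf2, Birc5 and Pclaf, from -3.48 to -2.89. Some high pools had no counts for Ect2, Bub1, Ndc80, Ckap2l, Kif23 and Nuf2, and fitted fold changes of such genes depend on the prior count. Per cell, the share of counts in the S and G2/M lists had pool medians of 0.157% to 0.244% on the low side and 0.138% to 0.162% on the high side, lower in 8 of 8 pairs. Of 191 cells on the low side 101 were among the 1 in 3 cells of their plate and gate with the largest share in these genes, and of 191 on the high side 35. The pools thus differed in how many cells were rich in cycle transcripts, and a pool sum cannot separate fewer such cells from less RNA per cell.

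The hexamer TTTGAA, the core of the cell cycle genes homology region found in promoters of many mitotic genes, is shown for the 4 holders of it with the largest falls in the G2/M list. It occurred on either strand in the 250 bases before the start of 19 of the 42 fallen G2/M genes with an entry (45.2%), of 5 of 26 fallen S phase genes (19.2%) and of 1150 of 9143 tested genes (12.6%), with 14% of all fallen and 11.8% of all risen genes. The G2/M list holds mitotic genes, so membership itself favours this hexamer, and members that did not fall were not counted. The hexamer was also found in some small sets, in 3 of 5 risen matrix genes (60%), 2 of 5 risen mitophagy genes (40%) and 6 of 20 fallen mitochondrial ribosomal genes (30%). Capitals mark the match nearest to the start, which is the reverse complement in Kif11 and Ckap2l:
Ect2: cgtttaccggaTTTGAAacacactcaca
Kif11: cgtctccatttTTCAAAattgaggcgcg
Ckap2l: tattggcgaatTTCAAAgtcgcggaagc
Mki67: cgccgttttggTTTGAAtcgggcgggct

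Their positions in GRCm38.p6 are Ect2 chr3:27153976-27154003, Ckap2l chr2:129297226-129297253 and Mki67 chr7:135716461-135716488 on the minus strand and Kif11 chr19:37376352-37376379 on the plus strand. Of the other letters searched on both strands, the E2F-type TTTCGCGC occurred in 3 of 26 fallen S phase genes (11.5%; Mcm5, Mcm6 and Uhrf1) against 0.634% of tested genes. The palindrome bound by NRF1, a factor of many mitochondrial genes, occurred in 0 of 10 fallen respiratory chain genes and in 1.97% of tested genes. At so low a rate 10 genes are too few to show a lack of it. The E-box TCACGTG occurred in 5.99% of tested genes.

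Since cycling cells were unequally spread, the ranking was repeated, after the data had been seen, on the 511 cells left once the 1 in 3 cells richest in cycle transcripts were removed from each plate and gate, with 127 cells per side. Calls dropped to 581 of 12408 tested genes (4.68%), 256 higher (2.06%) and 325 lower (2.62%). Of the 382 cells compared before, 217 were on the same side here, so genes called again are no independent repeat. Of the 3235 genes called before, 3103 could be tested again, 2918 kept their sign and 531 were called again. No S phase or G2/M gene of the 35 tested in each list passed (medians 0.01 and -0.01); these genes chose the cells removed, so nothing is read from that.

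The ATF4-linked list kept most of its calls. Of its 30 genes 20 fell and 0 rose, with a median of -0.48, and 19 of those 20 had also fallen among all cells. Asns had a log2 change of -0.96 (adjusted p = 0.00062), Phgdh one of -0.77 and Shmt2 one of -0.70 (adjusted p = 0.0022 for both), and Atf4 one of -0.33 (adjusted p = 0.014). Of the tRNA synthetases 11 of 19 fell and 0 rose, and of the mitochondrial import genes 6 of 36 fell, among them Hspd1 (-0.40) and Tomm40 (-0.37). The mitochondrial ribosome had 2 of 77 lower and the TCA cycle 0 of 19. The respiratory chain had 3 higher and 2 lower of 77: Uqcrh, Ndufa6 and Atpif1, and Atp5g1 and Cycs. No gene of mitochondrial expression or biogenesis passed.

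**Figure D5:**
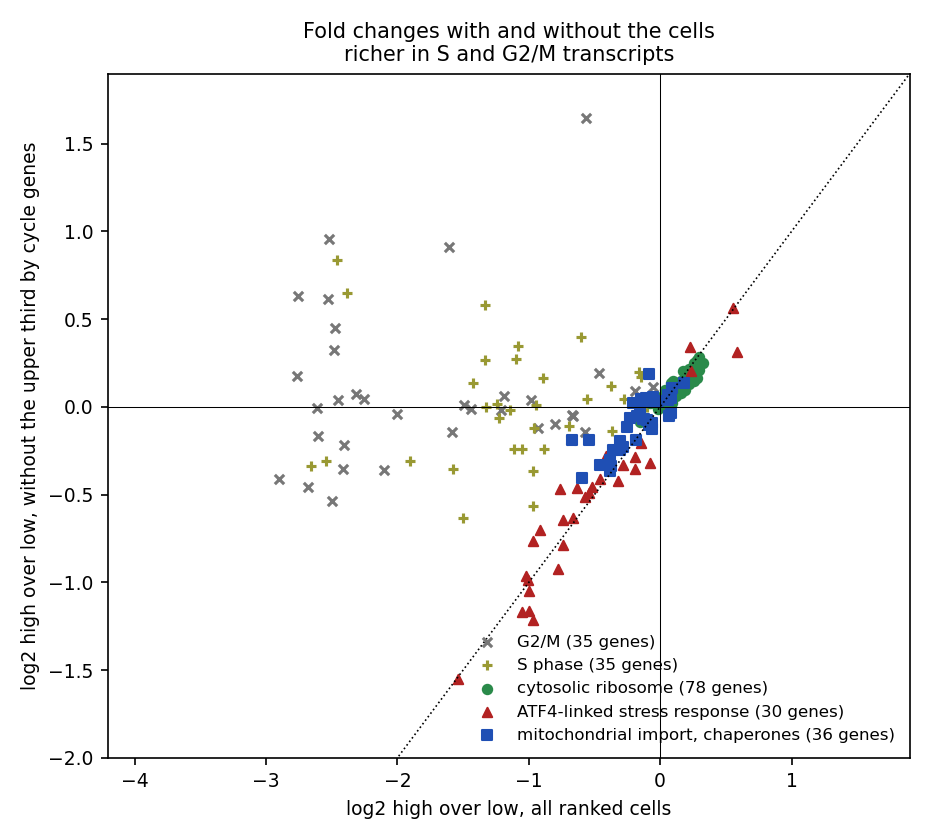
Log2 fold change (high over low mitochondrial share) in all ranked cells (horizontal) against the same after the 1 in 3 cells richest in cycle transcripts were left out (vertical), for genes of 5 lists tested both ways; the dotted line marks equality. S phase and G2/M genes scatter on both sides of 0 on the vertical axis, while most ATF4-linked genes stay below 0. The median of that list is -0.61 in all ranked cells and -0.48 without the cells richest in cycle transcripts.

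Cytosolic ribosomal protein genes were higher on the high side by small, even amounts. Of 78 tested, 60 rose and 1 (Rps2) fell, with a median of 0.16 (0.17 on plate 1, 0.15 on plate 2). Rps14 went from 1064, 1294 and 1658 CPM to 1276, 1552 and 1984 CPM with wide overlap (log2 0.28 ± 0.03 (SE), adjusted p = 0.00023), higher in 8 of 8 pairs, and Rps28 and Rpl10 rose by 0.29 and 0.28. Without the cells richest in cycle transcripts 12 of 78 rose and the median was 0.13. Many ribosomal protein genes have near-identical pseudogenes, so reads may be shared among copies.

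Lysosomal genes, listed after their values had been seen, had 25 of 41 higher and 0 lower (median 0.22), beside 11.3% and 13.1% of all genes. Without the cells richest in cycle transcripts 7 were higher, with a median of 0.06, beside 2.06% of all genes. Npc2, which carries cholesterol out of the lysosome, went from 605, 644 and 757 CPM to 824, 904 and 1030 CPM without overlap (log2 0.46 ± 0.03 (SE), adjusted p = 3.2e-05). Psap, the precursor of the saposins, rose from 1066, 1319 and 1468 CPM to 1483, 1707 and 1863 CPM, also apart. Of 20 risen genes of this list with a promoter entry, 7 hold TCACGTG (35%). Among others it was in 89 of 1055 of all risen genes (8.44%), 548 of 9143 tested genes (5.99%) and 2 of 10 fallen tRNA synthetase genes (20%). These letters form the core of a known lysosomal element, so membership of the list itself favours them. Members that did not rise were not counted.

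Matrix and receptor genes of fibroblasts were mixed but leaned higher, with 9 of 24 up and 2 down (median 0.19). Without the cells richest in cycle transcripts 7 were up and 2 down, with a median of 0.03. Over all genes 11.3% rose and 13.1% fell, and in that setting 2.06% and 2.62%. Ranked by the mitochondrial protein-coding genes, 7 were up and 3 down (median 0.09), beside 1064 and 1327 of all 13278 genes. Mmp2, a gelatinase, went from 694, 893 and 1030 CPM to 1203, 1388 and 1792 CPM without overlap (log2 0.71 ± 0.08 (SE), adjusted p = 0.00012). Col3a1 and the PDGF receptor Pdgfrb rose by 0.98 and 0.72, while Col5a1 (-0.28) and Timp1 (-0.34) fell, calls that were each lost on leaving out any of 6 single pairs (adjusted p up to 0.10 and 0.11). Contractile and serum response factor targets went the other way, with 8 of 14 lower and 0 higher (median -0.30). Without the cells richest in cycle transcripts 3 of 12 fell, and ranked by the mitochondrial protein-coding genes 5 of 13 fell (median -0.16). Over all genes 13.1% fell, with 2.62% and 1327 of 13278 in these settings, in that order. Actb, cytoplasmic actin, went from 4167, 4414 and 5132 CPM to 3389, 3626 and 3818 CPM without overlap (log2 -0.33 ± 0.03 (SE), adjusted p = 0.00011) and Cnn2, calponin 2, had a log2 change of -0.58.

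The 12 largest rises by the naming rule were led by secreted proteins. Agt, angiotensinogen, went from 3.58, 11 and 34.1 CPM to 38.3, 53.3 and 80.1 CPM without overlap (log2 2.20 ± 0.32 (SE), adjusted p = 0.00065). Aspn, a small leucine-rich proteoglycan, had the largest value but overlapping pools (2.1, 20.6 and 94.8 CPM against 36.4, 145 and 272 CPM; log2 2.36 ± 0.54 (SE), adjusted p = 0.0083), and its exons overlap Cenpp on the opposite strand. Apod (1.65), a lipocalin, and Selenop (1.13), a selenium carrier, are secreted as well.

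Several of the others are known to restrain growth. Trp53inp1, a p53-induced regulator of autophagy, went from 14.7, 17.9 and 28.6 CPM to 33, 42.2 and 50.8 CPM without overlap (log2 1.12 ± 0.10 (SE), adjusted p = 7.1e-05). Ccng2, an atypical cyclin of non-dividing cells, went from 23.4, 30.8 and 43.6 CPM to 53.1, 62.7 and 89.1 CPM, also apart (log2 1.12 ± 0.14 (SE), adjusted p = 0.00028). Deptor (1.10), an inhibitor of mTOR, and Fbxo32 (1.04), a ubiquitin ligase of muscle atrophy, rose too. The remaining ones were Ranbp3l (1.33), Marcksl1 (1.10), Capn6 (1.09) and Ypel2 (1.03). Without the cells richest in cycle transcripts, Agt (1.33), Trp53inp1 (0.70) and Ccng2 (0.85) rose again, whereas Aspn (1.51, adjusted p = 0.083) and Capn6 (0.73, adjusted p = 0.064) did not pass.

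Of 16 tested p53 targets 2 rose, Trp53inp1 and Sesn1 (0.42), and 0 fell, beside 11.3% higher and 13.1% lower of all genes. Cdkn1a, the inhibitor p21, did not pass (log2 -0.22 ± 0.12 (SE), adjusted p = 0.19), though it fell without the brightest gate of plate 2 (-0.33, adjusted p = 0.021). Of 23 early response and heat shock genes that dissociation is known to induce, 1 (Ier3) rose and 2 (Klf4 and Dusp5) fell. Neither list had a larger share called than the 24.4% over all genes. Without the brightest gate of plate 1 Dusp5 did not pass (-0.45, adjusted p = 0.054). Of 8 tested RNAs kept in the nucleus 4 rose and 0 fell (median 0.29), beside 11.3% and 13.1% of all genes. Malat1 stood at 365, 601 and 1099 CPM in low pools and 612, 1061 and 1716 CPM in high pools, with wide overlap (log2 0.69 ± 0.12 (SE), adjusted p = 0.0018), and Neat1 rose by 0.47. Malat1, Neat1, Kcnq1ot1 and Pvt1 did not pass without the cells richest in cycle transcripts. The part of cell quality in the differences above was not tested.

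Nuclear features that resemble mitochondrial sequence and carry Gm symbols rose in 9 of 9 tested cases (median 0.78), for example Gm28437 with 1.00 ± 0.15 (SE) and Gm10925 with 0.71 ± 0.12 (SE). Reads of such copies cannot be told apart from mitochondrial reads here, so these values are uncertain. Among them Gm11808 had the smallest change (0.28) and its likeness to mitochondrial sequence was not checked.

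The line matched its label: all 9 fibroblast markers were detected, with a summed level of 20545 to 29866 CPM in low pools and 24163 to 33700 CPM in high pools. Of 18 markers of epithelial, immune, endothelial, muscle and fat cells 15 had a feature. Of these, 11 were under 1 CPM in every pool, including 3 (Epcam, Krt18 and Ptprc) with no counts. The epithelial marker Cdh1 was the highest, at 3.87 to 12.3 CPM in low pools and 2.25 to 5.82 CPM in high pools. Des, Cd68 and Pecam1 also passed 1 CPM in some pools. The summed level of the 15 was 8.91 to 18.2 CPM in low pools and 4.08 to 11.04 CPM in high pools. Only 2 of the 18 were tested, of which Des fell (-1.19, adjusted p = 0.022); it did not pass without the dimmest (-1.05, adjusted p = 0.054) or without the third gate of plate 2 (-1.01, adjusted p = 0.052).

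Of 17 tested circadian genes 5 rose and 0 fell, beside 11.3% and 13.1% of all genes, with 10 of 17 above 0 and a median of 0.09. Without the pair as a block 0 of the 17 passed. Ranked by the mitochondrial protein-coding genes 3 rose, 0 fell, 8 were above 0 and the median was -0.01. Over all 13278 genes in that ranking 1064 rose and 1327 fell. Dbp, a clock output transcription factor, stood at 11.8, 29.6 and 75.7 CPM in low pools and 14.7, 51.4 and 110.1 CPM in high pools (log2 0.61 ± 0.15 (SE), adjusted p = 0.014), higher in 7 of 8 pairs. The ranges overlap widely, and within the low side the level went from 11.8 CPM in the dimmest to 75.7 CPM in the brightest Venus gate of plate 1. Per3 (0.45), Tef (0.35), Nr1d1 (0.30) and Bhlhe40 (0.20) also rose, while Arntl, the positive factor BMAL1, did not pass (-0.01, adjusted p = 0.97). Each of these calls except that of Dbp was lost on leaving out any of 4 or 5 single pairs, with adjusted p up to 0.065 for Per3, 0.082 for Tef, 0.077 for Nr1d1 and 0.11 for Bhlhe40. Without the cells richest in cycle transcripts Dbp (0.07), Per3 (0.04), Tef (0.02) and Bhlhe40 (0.02) did not pass, and Nr1d1 (0.33, adjusted p = 0.04) did. Nr1d1 shares exon bases with Thra on the opposite strand.

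Whether the difference between the sides changed along the order of the 4 Venus gates was tested with an interaction term in edgeR. Of 13242 genes 0 (0%) passed, with 997 at an unadjusted p under 0.05 and a smallest adjusted p of 0.267. The 4 smallest p-values were those of Platr14, Id4, Slc17a9 and Nop53.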

How the data were processed

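Full-length single-cell RNA sequencing (FLASH-seq) covered 768 sorted cells on 2 plates. The authors deposited raw counts per gene and cell, made with STAR 2.7.11a, SAMtools, bedtools and HTSeq, per the submitters' processing notes, which name the builds GRCm39 and mm39; annotation, strand and molecular identifiers are not given in the sources used here. The sorter's intensity values per cell, in arbitrary units, were used as the authors deposited them. The imaging detector nearest to Venus emission and the far-red detector nearest to iRFP emission were taken for the reporters, which the labels do not state; 408 further sorter columns were not used. Features without a symbol held 1.10% of counts. Counts are PCR reads, so counting error understates their noise.

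Pools held 14857662 to 20401777 non-mitochondrial counts. They were tested with edgeR 4.0.16 in R 4.3.3 (TMM on non-mitochondrial totals, filterByExpr, pair as block, 7 residual degrees of freedom, Benjamini-Hochberg adjustment over all genes tested, threshold 0.05); standard errors are the log2 change divided by the root of F. Cytometer values and genes detected were compared by exact sign-flip permutation over 8 pairs. The script was tested on simulated data. Genes named are the 12 largest rises and falls with mean log2 CPM of at least 4 and 1 sign in 8 pairs, outside predicted genes, and per list the 3 called genes of each direction with the smallest p; other names are marked as chosen after their values were seen, apart from clock genes and a few regulators fixed with the rule. The cells, lists and motifs were chosen with earlier results of these data known. Symbols and exon overlaps came from GENCODE M21, and promoters from RefSeq (GRCm38.p6), with entries for 9143 of 13240 tested symbols. Cells were sorted singly per the labels' protocols, and doublets were not called. Some items named by these rules are not reported here.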

Additional observations from a re-analysis of the deposited data

How the results depend on the processing

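The 3235 calls stayed within 1.5 times (2391 to 3642) under another normalization, DESeq2, no filter, thinned cells, ends of other sizes from 1 in 3 to 1 in 2, a stricter cell filter, ranking by mitochondrial protein-coding genes and ranking apart in cells above and below the median of total counts or FSC-A; without the pair as a block 2391 genes were called. Of the 382 cells compared, 273 stayed on their side when ranked by mitochondrial protein-coding genes. Leaving out 1 pair at a time gave 2579 to 2925 calls. Calls fell to 989 with ends of 1 in 10, which use fewer cells, and to 581 without the cells richest in cycle transcripts, which also use fewer cells; what else lowers these counts was not tested. The interaction with the Venus gates called 1 gene with ends of 1 in 3. Of 102 named genes that passed, 3 changed sign in some setting, leave-out runs included: Rps2 was 0.028 when ranked by protein-coding genes, and Cdc45 was 0.65 and Smc4 0.04 without the cells richest in cycle transcripts. Of those still tested, 46 of 91 lost their call in that last setting, 48 of 101 with ends of 1 in 10 and 17 of 102 when ranked by protein-coding genes. None of the scatter and fluorescence differences passed under any setting run, and their signs moved: FSC-A was 0.0149 with ends of 1 in 3, 0.105 with ends of 1 in 10, and -0.078 to 0.0108 on 1 plate alone; Venus was -0.0034 with ends of 1 in 10 and -0.0971 to 0.166 on 1 plate alone; iRFP was 0.021 with ends of 1 in 3, 0.045 with ends of 1 in 10, 0.0134 ranked apart by total counts, and -0.0499 to 0.0208 on 1 plate alone. Genes detected at matched depth were fewer on the high side under each setting run. With 8 pairs from 2 plates of 1 culture, differences between cultures were not analysed here.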
